A study of Mus musculus with 8 samples.

Results

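The genes described here encode Polycomb proteins and the enzymes that add methyl groups to, or remove them from, lysines of histone H3. They were chosen by name, 55 mouse symbols matched to the Entrez genes of the count table, and all 55 were found among its 27179 genes. RNA came from the cerebral cortex of mouse embryos, 4 labelled Taf8 +/+ (wild-type) and 4 labelled Taf8 -/lox (Taf8-deleted), and each library has its own animal number. Taf8 belongs to TFIID, a general factor that recognises core promoters and recruits RNA polymerase II. The sources used here give neither embryonic day, strain nor the Cre driver that recombined the lox allele, so the cells that lost Taf8 within the tissue are not stated either. Wild-type replicates 1 to 3 have animal numbers with the same first part (408.4, 408.5 and 408.6) and replicate 4 has 409.2, while the deleted embryos have 456.1, 472.1, 477.1 and 486.1. If the first part marks a litter, litter and genotype cannot be told apart, and the wild-type spread may be that of littermates.

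Polycomb proteins keep developmental genes silent in cells that should not use them. Polycomb repressive complex 2 (PRC2) methylates H3K27, and complex 1 (PRC1) reads that mark through its CBX subunits and ubiquitinates histone H2A. The trithorax-type methyltransferases act against them by methylating H3K4 at active promoters and enhancers, and the lysine demethylases take these marks off again. In the developing cortex, PRC2 is known for setting the pace at which radial glia pass from making more progenitors to making neurons and then glia. The counts measure RNA of the genes, not the proteins or the histone marks.

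The targeted gene was checked first. Taf8 was at 38.5, 35, 32 and 33.7 CPM (CPM, the share of a library's counts on a fixed scale, with libraries scaled by TMM) in the wild-type libraries and at 0.791, 0.747, 0.486 and 0.547 CPM in the Taf8-deleted ones (log2 fold change -5.75, SE 0.12, adjusted p = 1.45e-09). Libraries held 26312505 to 65523487 counts. The detection floor of 3 counts equals 0.0458 to 0.114 CPM and covers counting error only. Of 8 cortical identity markers, 6 were lower and 1 higher (summed level 1977 to 2264 against 2656 to 2958 CPM). Neuronal markers were lower in the deleted libraries (9 of 10 passed the test, summed level 4456 to 4949 against 5530 to 6711 CPM). Radial glia markers were mostly higher (5 of 8 rose and 2 fell, summed level 3066 to 3421 against 2233 to 2513 CPM), and all 8 endothelial and pericyte markers rose (211 to 267 against 175 to 185 CPM). Interneuron markers summed to less (640.3 to 654 against 823 to 952 CPM), with 5 of 6 lower and 1, Dlx5, higher (log2 fold change 0.48). Red blood cell markers summed to more (339.9 to 464 against 255 to 329 CPM). Of 10 markers of S phase and mitosis, 4 were lower and 0 higher, with overlapping sums (1847 to 1863 against 1809 to 2159 CPM). Of 8 microglia and macrophage markers, 4 were higher and 1 lower, also with overlapping sums (48.1 to 63.9 against 43.9 to 50.2 CPM). Meningeal fibroblast markers summed to 63.4, 114, 137 and 21.9 CPM in the deleted libraries and to 25.5 to 43.8 CPM in the wild-type ones, with 4 of 7 higher. Choroid plexus markers stood out in deleted replicate 1 (1232 CPM) and wild-type replicate 4 (413 CPM), against 13.5 to 201 CPM in the other libraries. In pieces of tissue, fewer cells of a type and less RNA per cell cannot be told apart, and the part of these cell types in the values below was not tested.

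The Polycomb and histone methylation genes changed little. Of the 55, all of which passed the filter on low counts, 6 were higher and 23 lower at an adjusted p under 0.05 (edgeR's quasi-likelihood test, Benjamini-Hochberg adjustment over 15649 genes), and 26 did not pass. Over all genes tested, 59.2% were called, 29.5% higher and 29.6% lower, so the share of these genes that passed (52.7%) was near the background, while their split was tilted to lower values (10.9% higher, 41.8% lower). Leaving out wild-type replicate 2 or any single deleted library left 3 higher, and Cbx2, Cbx8 and Setdb1 were called in all 19 alternatives other than the stricter criteria. The members' median log2 fold change was -0.04, against 0.01 over all genes tested. Leaving out any 1 library gave a members' median of -0.079 to -0.054, and library size alone as the scaling gave 0.006, against 0.052 over all genes. With that scaling the split of the members was 9 higher and 19 lower, where 33.6% of all genes were higher and 26.2% lower. The groups did not overlap in 25 of the 55 (4 higher, 21 lower), while 53.6% of all genes tested did not overlap (26.6% higher, 27% lower). Counts for the smaller groups of genes below stand against these shares over all genes tested.

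No member changed 1.5-fold. Log2 fold changes ran from -0.45 to 0.27, and their standard errors from 0.03 to 0.13, while a 1.5-fold change is 0.58 on this scale. Among all genes tested, 20.2% were both called and changed at least 1.5-fold. Restricting the comparison to genes with a mean of at least 5 CPM, a choice made after the data were seen, gave 14.1% (63.5% of those genes were called), and all 55 members have such levels. The median absolute log2 fold change was 0.13 for the members, 0.27 for all genes tested and 0.23 for the genes of at least 5 CPM. When a change had to exceed 1.2-fold, 29.6% of all genes passed, and 6 of the 55 did, all of them lower: Cbx7, Kdm6b, Kdm5c, Kdm4a, Kdm2b and Ezh1.

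**Figure D1:**
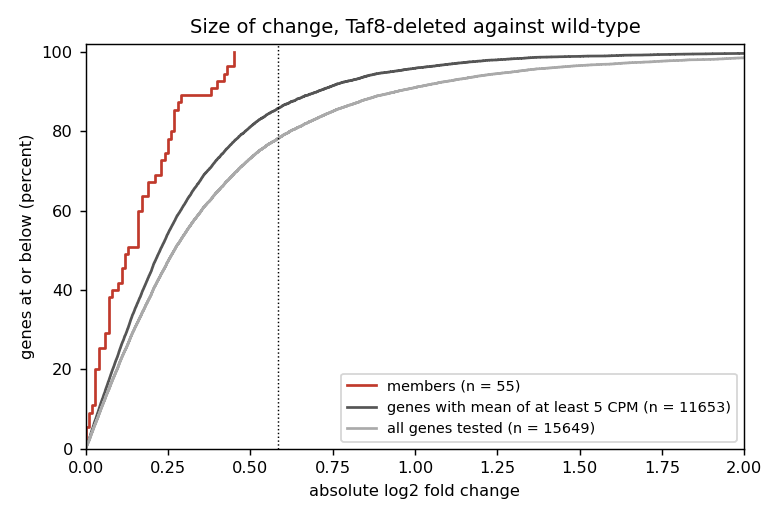
Cumulative share of genes (percent, vertical axis) at or below each absolute log2 fold change (horizontal axis, drawn to 2) for the 55 members, the 11653 genes with a mean of at least 5 CPM and all 15649 genes tested. The dotted line is 1.5-fold, and the curve of the members reaches 100% at 0.45, to the left of it.

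Promoters of 6 of these genes are printed because they include the largest falls (Cbx7, Kdm5c, Kdm4a, Ezh1) and rises (Cbx8, Setdb1) among the genes with a single entry in RefSeq's promoter table (GRCm38.p6, the sequence of mm10). Each runs 5′ to 3′ along the gene's strand from 250 bases before the start of transcription to 50 after it. For Cbx7 the table's start lies inside the span given for the gene below, whose far end is another, upstream start. Capitals mark matches on either strand to 5 motifs. The TATA box was searched as TATAAA. The GC box that SP1 binds was searched as GGGCGG. The site of ETS factors was searched as CCGGAAG. The core of the YY1 site was searched as ATGGCGG. The last motif was CCAAT, which NF-Y binds.
Cbx7: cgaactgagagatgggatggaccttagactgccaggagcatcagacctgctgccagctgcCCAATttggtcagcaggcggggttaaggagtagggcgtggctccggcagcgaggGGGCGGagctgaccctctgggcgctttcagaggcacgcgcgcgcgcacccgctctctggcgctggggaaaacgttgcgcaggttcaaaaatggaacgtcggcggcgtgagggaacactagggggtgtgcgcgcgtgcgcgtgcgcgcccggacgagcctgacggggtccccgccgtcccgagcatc
Kdm5c: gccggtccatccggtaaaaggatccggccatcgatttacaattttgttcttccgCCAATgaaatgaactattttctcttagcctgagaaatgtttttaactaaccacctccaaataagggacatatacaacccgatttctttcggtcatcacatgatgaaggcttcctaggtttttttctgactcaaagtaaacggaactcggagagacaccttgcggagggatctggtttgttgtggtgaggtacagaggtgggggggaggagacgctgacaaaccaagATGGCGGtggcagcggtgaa
Kdm4a: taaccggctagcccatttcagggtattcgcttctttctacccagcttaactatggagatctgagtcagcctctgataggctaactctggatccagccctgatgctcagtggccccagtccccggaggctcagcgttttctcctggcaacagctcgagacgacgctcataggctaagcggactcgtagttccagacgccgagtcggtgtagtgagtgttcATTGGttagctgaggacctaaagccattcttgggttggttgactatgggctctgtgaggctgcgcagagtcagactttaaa
Ezh1: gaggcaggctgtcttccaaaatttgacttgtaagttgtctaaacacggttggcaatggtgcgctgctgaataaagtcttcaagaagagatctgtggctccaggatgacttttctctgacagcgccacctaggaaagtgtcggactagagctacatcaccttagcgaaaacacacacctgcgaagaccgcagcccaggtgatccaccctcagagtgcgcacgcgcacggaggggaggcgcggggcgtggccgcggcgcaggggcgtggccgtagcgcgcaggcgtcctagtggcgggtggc
Cbx8: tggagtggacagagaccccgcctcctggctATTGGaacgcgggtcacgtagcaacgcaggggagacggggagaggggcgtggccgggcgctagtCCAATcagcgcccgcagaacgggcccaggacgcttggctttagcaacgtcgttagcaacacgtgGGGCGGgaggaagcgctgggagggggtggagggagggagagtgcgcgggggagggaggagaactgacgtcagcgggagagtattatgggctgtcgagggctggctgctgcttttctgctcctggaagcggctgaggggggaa
Setdb1: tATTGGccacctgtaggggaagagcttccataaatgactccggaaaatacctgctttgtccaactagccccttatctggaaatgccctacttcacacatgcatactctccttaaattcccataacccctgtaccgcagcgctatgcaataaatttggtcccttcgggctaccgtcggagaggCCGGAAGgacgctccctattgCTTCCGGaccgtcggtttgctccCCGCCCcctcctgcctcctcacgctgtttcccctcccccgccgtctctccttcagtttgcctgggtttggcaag

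The windows are chr15:79932597-79932896, minus strand for Cbx7, chrX:152232977-152233276, plus strand for Kdm5c, chr4:118179994-118180293, minus strand for Kdm4a, chr11:101226414-101226713, minus strand for Ezh1, chr11:119040864-119041163, minus strand for Cbx8 and chr3:95357153-95357452, minus strand for Setdb1. No TATAAA was found in any of the 6, and none of the 12 matches overlapped another. The table held 56 promoters of 42 members, and the other 13 members had no entry.

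The members' promoters were rich in CpG, with a median of 28 CpG per 300 bases against 7 over all 32851 promoters of the table. TATAAA was in 1.79% of them (1 of 56) against 13.6% of all promoters, and GGGCGG was in 73.2% against 35.7%. CCAAT was about as frequent as elsewhere, in 37.5% against 37.4%, and so was CCGGAAG, in 8.93% against 8.86%. ATGGCGG was in 12.5% against 4.05%. Within the members, the promoters of genes that fell held a median of 24 CpG (24 promoters), those of genes that rose 24 (3 promoters) and those that did not pass 31 (29 promoters). GGGCGG was in 70.8% of the promoters of lower members and 72.4% of those that did not pass. These are matches of letters in a fixed window, and genes with several entries count more than once. All members passed the filter on low counts, while 11530 of the 27179 genes in the count table did not. The promoters of the whole table were not limited to genes that passed. Whether the members' promoters differ from those of other expressed genes was not tested.

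Of the 6 core PRC2 genes, Ezh1 and Rbbp7 fell and 4 did not pass. Ezh2, the main H3K27 methyltransferase of dividing cells, was at 299.5, 303, 292 and 285 CPM in the wild-type libraries and 291, 286, 286 and 304 CPM in the Taf8-deleted libraries. The 2 ranges of Ezh2 overlap, and the difference did not pass (log2 fold change -0.02, SE 0.04, adjusted p = 0.737). Eed, which binds the methylated lysine, and Suz12, the scaffold, did not pass either (both -0.03, with SE 0.04 and 0.06), nor did the histone-binding gene Rbbp4 (-0.07, SE 0.04), which was called lower without deleted replicate 4 (-0.11, adjusted p = 0.0365). With upper-quartile scaling or library size alone, the values of Ezh2, Eed and Suz12 turned positive, to at most 0.026. Rbbp7, the close relative of Rbbp4, fell from 167 ± 2.99 to 145 ± 2.55 CPM (log2 fold change -0.21, SE 0.04, adjusted p = 0.000539).

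Ezh1, the PRC2 methyltransferase that is kept in cells that have stopped dividing, was at 25.5, 23.9, 25.1 and 23.5 CPM in the wild-type libraries and 19.1, 19.9, 18.1 and 18.4 CPM in the Taf8-deleted libraries. All 4 deleted libraries lay below all 4 wild-type libraries (log2 fold change -0.38, SE 0.05, adjusted p = 0.000129; Entrez gene 14055, chromosome 11, 101191115 to 101226463). Per kilobase of gene length, Ezh1 was at 5.85 CPM and Ezh2 at 111 CPM in wild-type cortex, so Ezh1 made up a small part of the transcripts for the 2 enzymes. The ratio of Ezh1 to Ezh2 within a library, which does not depend on the scaling, went from 0.0528 to 0.0412 per kilobase.

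Accessory subunits of PRC2 guide it to its sites. Phf1, a Polycomb-like protein that binds CpG-rich DNA, was at 37, 36.3, 33.5 and 34.4 CPM in the wild-type libraries and 28.3, 28, 30 and 29.6 CPM in the Taf8-deleted libraries. Its groups do not overlap (log2 fold change -0.28, SE 0.05, adjusted p = 0.000529), but 1370 exon bases of Phf1 are shared with Cuta on the opposite strand. Jarid2, which helps to recruit PRC2, fell from 121 ± 2.3 to 112 ± 1.09 CPM (log2 fold change -0.12, SE 0.03, adjusted p = 0.0108), a call lost with library size alone as the scaling (adjusted p = 0.0809). The other Polycomb-like genes, Mtf2 (-0.08, SE 0.08) and Phf19 (-0.03, SE 0.11), did not pass. Phf19 was the least expressed of the 55 per kilobase in wild-type cortex, at 2.47 CPM, while in deleted cortex Cbx7 (1.85 CPM) was below Phf19 (2.42 CPM).

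PRC1 is built on a RING protein and 1 of 6 PCGF proteins, which set the kind of complex. The ubiquitin ligase genes Ring1 (-0.03) and Rnf2 (0.19) did not pass. Rnf2, the more abundant, was at 108, 122, 142 and 117 CPM in the wild-type libraries and 144, 131, 134 and 150.2 CPM in the Taf8-deleted libraries, where only wild-type replicate 3 reached the deleted range. Without that library Rnf2 was called as higher (log2 fold change 0.27, adjusted p = 0.00221). It was also called higher with upper-quartile scaling, library size alone, DESeq2, voom with quality weights and wild-type replicates 1 to 3 summed (adjusted p = 0.00644 to 0.0488). Of the 6 PCGF genes, 4 were lower and 0 higher, where 29.6% of all genes tested were lower and 29.5% higher. Pcgf6, of a variant complex, was at 29.8, 29.8, 32.6 and 29.1 CPM in the wild-type libraries and 27.1, 24, 25.4 and 25.8 CPM in the Taf8-deleted libraries, with no overlap (log2 fold change -0.25, SE 0.06, adjusted p = 0.00291). Pcgf3 (-0.23) and Pcgf2 (-0.16, also called Mel18) were lower too, without overlap, and Pcgf1 (0.06) and Pcgf5 (-0.04) did not pass.

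Bmi1, the PCGF protein best known for stem cell self-renewal and for repressing the Cdkn2a locus, was at 118, 127, 163 and 121 CPM in the wild-type libraries and 112, 97, 109.7 and 121 CPM in the Taf8-deleted libraries. Its groups overlap, and wild-type replicate 3 was the highest library. The call (log2 fold change -0.26, SE 0.10, adjusted p = 0.046) was lost without wild-type replicate 3 (-0.15, adjusted p = 0.0754) and without deleted replicate 1, 2 or 3, with an adjusted p of 0.0686, 0.109 and 0.0788. It was also lost with the replicate block (adjusted p = 0.0582), upper-quartile scaling (adjusted p = 0.0635) and library size alone (adjusted p = 0.0687). The same held for limma voom (adjusted p = 0.0514) and without both wild-type replicate 4 and deleted replicate 1 (adjusted p = 0.0646).

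The CBX subunits, which read methylated H3K27 in canonical PRC1, went in opposite directions. Cbx7, the form known from embryonic stem cells and resting cells, was at 8.03, 7.5, 6.62 and 7.15 CPM in the wild-type libraries and 5.35, 5.03, 5.95 and 5.06 CPM in the Taf8-deleted libraries. No deleted library reached the wild-type range (log2 fold change -0.45, SE 0.09, adjusted p = 0.00181; Entrez gene 52609, chromosome 15, 79915804 to 79971143). Its level was 73% of wild-type, and it was a low gene, at 2.53 CPM per kilobase.

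Cbx2, a form of progenitor cells, was at 102, 95.2, 80.7 and 98.2 CPM in the wild-type libraries and 109.6, 116, 116 and 112 CPM in the Taf8-deleted libraries, with every deleted library above every wild-type one (log2 fold change 0.27, SE 0.07, adjusted p = 0.00488; Entrez gene 12416, chromosome 11, 119023019 to 119031275). Cbx8, its neighbour on chromosome 11 (119036303 to 119040913), was at 18.5, 18.2, 17.2 and 19 CPM in the wild-type libraries and 21.6, 20.5, 22.8 and 22.7 CPM in the Taf8-deleted libraries, likewise without overlap (log2 fold change 0.27, SE 0.06, adjusted p = 0.00204). Cbx6 was at 127, 127, 122 and 132 CPM in the wild-type libraries and 136, 143, 135 and 135 CPM in the Taf8-deleted libraries, also without overlap (log2 fold change 0.11, SE 0.04, adjusted p = 0.0286). It shares 563 exon bases with Npcd on the same strand, which can split its counts. The call of Cbx6 was lost with the replicate block (adjusted p = 0.0755) and without wild-type replicate 1 or 2 or any single deleted library (adjusted p = 0.0626 to 0.136). Summing wild-type replicates 1 to 3 lost it too (adjusted p = 0.0848). Within a library, the ratio of Cbx7 to Cbx2 went from 0.101 to 0.061 per kilobase. The log2 ratio was -3.30, -3.30, -3.24 and -3.41 in the wild-type libraries and -3.98, -4.16, -3.91 and -4.09 in the deleted ones. That was the widest shift among the 18 pairs of related genes examined, which include 16 pairs of members. The pair joins the called member with the largest fall to the one with the largest rise. Its rank among the member pairs therefore follows from those values and is not a separate result.

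The polyhomeotic genes, whose proteins hold PRC1 complexes together, did not pass. Log2 fold changes were 0.00 for Phc1, 0.07 for Phc2 and 0.04 for Phc3, with standard errors of 0.05 to 0.09. Phc2 was the most abundant PRC1 member per kilobase, at 74.6 CPM in wild-type and 78.5 CPM in deleted cortex.

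**Figure D2:**
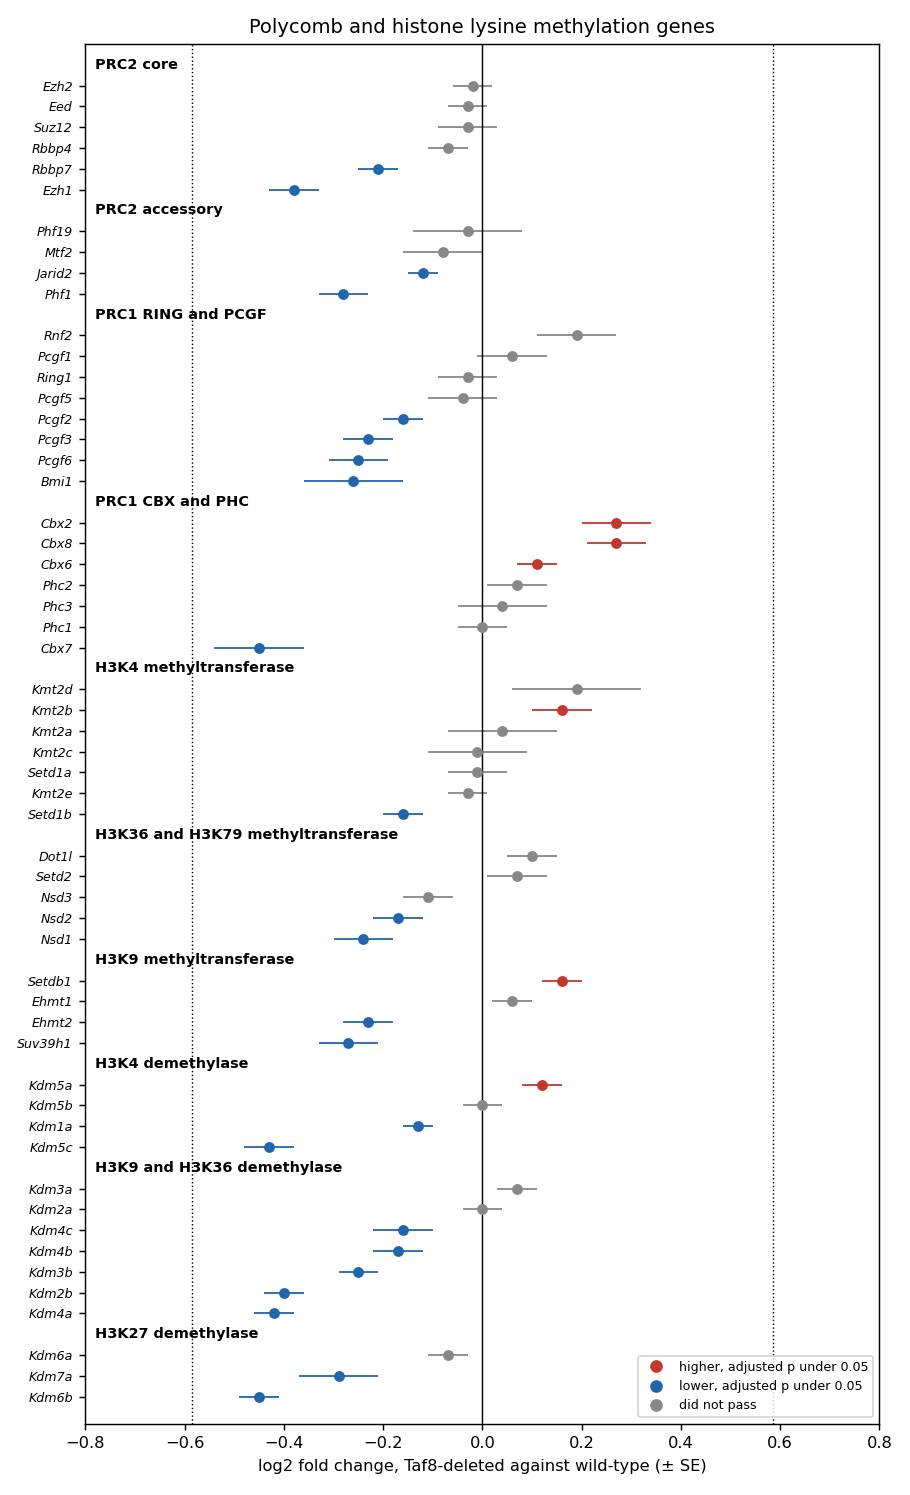
Log2 fold change (horizontal axis, Taf8-deleted against wild-type, 4 libraries each) of each of the 55 genes by role, with bars of 1 SE; red marks genes called higher, blue lower and grey not passed. The dotted lines are 1.5-fold, and no point reaches them: the range is -0.45 to 0.27.

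The H3K4 methyltransferases had the lowest share of calls among the 10 role groups (28.6%), where 59.2% of all genes tested were called. Of 7 genes, 1 was higher, 1 lower and 5 did not pass. Kmt2b, which methylates promoters, was at 223, 198, 189 and 186 CPM in the wild-type libraries and 229.7, 218, 223 and 217 CPM in the Taf8-deleted libraries. Wild-type replicate 1 lay within the deleted range (log2 fold change 0.16, SE 0.06, adjusted p = 0.0351), and the call was lost without wild-type replicate 2, 3 or 4 or any single deleted library (adjusted p = 0.0576 to 0.118). Leaving out both wild-type replicate 4 and deleted replicate 1 lost it too (adjusted p = 0.178). Setd1b, a subunit of the complexes that methylate most active promoters, fell from 133 ± 3.54 to 118 ± 5.44 CPM (log2 fold change -0.16, SE 0.04, adjusted p = 0.00692), while its paralog Setd1a did not pass (-0.01). Setd1a shares 3523 exon bases with the predicted gene Gm49388 on the same strand, which can split its counts.

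The long transcripts of Kmt2a, Kmt2c and Kmt2d, made of 16439 to 19827 bases of exon in the count table, varied widely within a group. Kmt2d, an enhancer methyltransferase, was at 157, 157, 159.8 and 136 CPM in the wild-type libraries and 222, 136, 153 and 184 CPM in the Taf8-deleted libraries. Deleted replicate 1 was its highest library, and the groups overlap (log2 fold change 0.19, SE 0.13, adjusted p = 0.227). Kmt2a, the MLL gene of leukaemia translocations, was at 313, 319.9, 359 and 282 CPM in the wild-type libraries and 398, 269.9, 296 and 347 CPM in the Taf8-deleted libraries and Kmt2c at 256, 249, 288 and 226 CPM in the wild-type libraries and 295, 213, 236 and 268 CPM in the Taf8-deleted libraries. For both, deleted replicate 1 was again the highest library and deleted replicate 2 the lowest, and the values did not pass (0.04, SE 0.11, and -0.01, SE 0.10). Deleted replicate 1 is also the library with the most choroid plexus RNA, and wild-type replicate 4 has the next most. The latter was the lowest wild-type library for Kmt2a, Kmt2c and Kmt2d. Whether choroid plexus RNA bears on these values was not tested. Leaving out both libraries was chosen after the data were seen. Kmt2a was then at -0.12 (adjusted p = 0.319) and Kmt2d at -0.000 (adjusted p = 0.997), and neither passed. Kmt2e, which lacks a well established enzyme activity, was at 326 ± 11.2 and 319 ± 11.9 CPM (-0.03, SE 0.04).

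Methyltransferases of H3K36, a mark of transcribed gene bodies, were lower in 2 of 4 genes. Nsd1 fell from 348 ± 18 to 295 ± 24.3 CPM (log2 fold change -0.24, SE 0.06, adjusted p = 0.00673) and Nsd2 from 496 ± 18.8 to 442 ± 24 CPM (log2 fold change -0.17, SE 0.05, adjusted p = 0.0109), both without overlap. Nsd3 did not pass (-0.11, adjusted p = 0.0649), but it was called lower on leaving out wild-type replicate 4, deleted replicate 1 or both, and by DESeq2 and quality-weighted voom (adjusted p = 0.0206 to 0.0407). Setd2 (0.07), which makes the trimethylated form, did not pass, nor did Dot1l (0.10), the methyltransferase of H3K79. Dot1l was called higher without wild-type replicate 1, with wild-type replicates 1 to 3 summed and with library size alone (adjusted p = 0.00928 to 0.0414).

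Among the H3K9 methyltransferases, which mark silent chromatin, 1 rose and 2 fell. Setdb1, known for silencing endogenous retroviruses, was at 174, 167, 162 and 163 CPM in the wild-type libraries and 186, 191, 185 and 183 CPM in the Taf8-deleted libraries. All deleted libraries were above the wild-type ones (log2 fold change 0.16, SE 0.04, adjusted p = 0.00419; Entrez gene 84505, chromosome 3, 95323525 to 95357202). Suv39h1, of pericentric heterochromatin, was at 91.5, 85.9, 75.4 and 84 CPM in the wild-type libraries and 66.8, 71.3, 70.6 and 69.8 CPM in the Taf8-deleted libraries, without overlap (log2 fold change -0.27, SE 0.06, adjusted p = 0.00179; 767 exon bases are shared with the antisense gene Gm14820). Ehmt2 (G9a) was at 396, 373, 334 and 364 CPM in the wild-type libraries and 306, 318, 315 and 313 CPM in the Taf8-deleted libraries, without overlap (log2 fold change -0.23, SE 0.05, adjusted p = 0.00264). Its partner Ehmt1 was at 242, 232, 224 and 225 CPM in the wild-type libraries and 247, 240.1, 237 and 241 CPM in the Taf8-deleted libraries and did not pass (0.06), although it was called higher with library size alone as the scaling (adjusted p = 0.0394). The ratio of Ehmt1 to Ehmt2 per kilobase went from 0.507 to 0.62, and the groups did not overlap in it.

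Most of the demethylase genes that moved were lower: 9 of the 14 fell, 1 rose and 4 did not pass. Over all genes tested, 29.6% were lower and 29.5% higher. Of the 6 genes past 1.2-fold, 4 were demethylases. Kdm6b (also Jmjd3), which removes methyl groups from H3K27 and is known as an inducible gene, was at 264, 266, 239 and 252 CPM in the wild-type libraries and 188, 187, 183 and 192 CPM in the Taf8-deleted libraries. The groups are far apart for their spread (log2 fold change -0.45, SE 0.04, adjusted p = 1.07e-05; Entrez gene 216850, chromosome 11, 69398508 to 69420367). Its paralog Kdm6a (Utx), on the X chromosome, was at 59.6, 57.9, 62.9 and 58 CPM in the wild-type libraries and 59.1, 54.6, 55.5 and 57.3 CPM in the Taf8-deleted libraries, with overlap, and did not pass (-0.07, adjusted p = 0.169). The log2 ratio of Kdm6a to Kdm6b was -1.81, -1.86, -1.58 and -1.78 in the wild-type libraries and -1.33, -1.44, -1.38 and -1.41 in the deleted ones, with no overlap. Kdm7a, which acts on H3K9 and H3K27, was at 71, 75.6, 87.3 and 75.2 CPM in the wild-type libraries and 68.5, 55, 59.2 and 69.3 CPM in the Taf8-deleted libraries, also without overlap (log2 fold change -0.29, SE 0.08, adjusted p = 0.0119).

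Of the H3K4 demethylases, Kdm5c moved most. Kdm5c, an X-linked gene mutated in intellectual disability, was at 199, 189.6, 175 and 182 CPM in the wild-type libraries and 143, 136, 137 and 139.7 CPM in the Taf8-deleted libraries. Every deleted library was below every wild-type library (log2 fold change -0.43, SE 0.05, adjusted p = 2.15e-05; Entrez gene 20591, chromosome X, 152233198 to 152279102). Kdm5a was at 126, 121, 133 and 120.0 CPM in the wild-type libraries and 142, 134, 130.2 and 135 CPM in the Taf8-deleted libraries, with overlap (log2 fold change 0.12, SE 0.04, adjusted p = 0.0443), and its call was lost with the replicate block (adjusted p = 0.097) and on leaving out any single library except wild-type replicate 3 (adjusted p = 0.0673 to 0.185). The call of Kdm5a was also lost with RLE factors (adjusted p = 0.0558) and without a filter (adjusted p = 0.0766). Leaving out both wild-type replicate 4 and deleted replicate 1 lost that call too (adjusted p = 0.241). Kdm5b, the most abundant of the 3 per kilobase, did not pass (321 ± 6.64 and 322 ± 8.38 CPM). Kdm1a (LSD1), the most abundant of the 55 per kilobase at 139 CPM, fell from 419 ± 8.35 to 383 ± 7.7 CPM (log2 fold change -0.13, SE 0.03, adjusted p = 0.00748), a call lost with library size alone as the scaling (adjusted p = 0.0552).

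The demethylases of H3K9 and H3K36 were lower in 5 of 7 (71.4%), where 29.6% of all genes tested were lower. Kdm4a was at 319, 319, 302 and 317 CPM in the wild-type libraries and 226, 239.9, 236 and 237 CPM in the Taf8-deleted libraries, and had the smallest adjusted p of the 55 (log2 fold change -0.42, SE 0.04, adjusted p = 5.69e-06; Entrez gene 230674, chromosome 4, 118136957 to 118180090). Kdm2b, which also brings a variant PRC1 to CpG islands, was at 175, 165, 166 and 168 CPM in the wild-type libraries and 124, 132, 124 and 131 CPM in the Taf8-deleted libraries, without overlap (log2 fold change -0.40, SE 0.04, adjusted p = 1.31e-05; Entrez gene 30841, chromosome 5, 122870664 to 122989270), and shares 627 exon bases with Rnf34 on the opposite strand. Its paralog Kdm2a was at 195, 188, 187 and 195 CPM in the wild-type libraries and 196, 191, 190.3 and 187 CPM in the Taf8-deleted libraries, with overlap, and did not pass (SE of the log2 fold change 0.04). The log2 ratio of Kdm2a to Kdm2b was below 0 in every wild-type library (-0.26, -0.23, -0.24 and -0.20) and above 0 in every deleted one (0.24, 0.11, 0.20 and 0.09).

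Kdm3b was at 174, 169.7, 156 and 165 CPM in the wild-type libraries and 144, 136, 139.9 and 138 CPM in the Taf8-deleted libraries (log2 fold change -0.25, SE 0.04, adjusted p = 0.000533), again with separate groups, although 3468 of its exon bases lie under Gm26538 on the opposite strand. Its paralog Kdm3a was at 178, 184, 176 and 195 CPM in the wild-type libraries and 193, 193, 191 and 190.2 CPM in the Taf8-deleted libraries and did not pass (0.07), and the ratio of Kdm3a to Kdm3b went from 1.59 to 1.99. Kdm4b fell from 176 ± 7.9 to 156 ± 6.14 CPM (log2 fold change -0.17, SE 0.05, adjusted p = 0.00755). Kdm4c (-0.16, adjusted p = 0.0322) lost its call with the replicate block (adjusted p = 0.0755) and without wild-type replicate 3 (adjusted p = 0.0596) or deleted replicate 2, 3 or 4 (adjusted p = 0.0507 to 0.0617). That call was also lost with upper-quartile scaling (adjusted p = 0.0696) and library size alone (adjusted p = 0.0907).

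**Figure D3:**
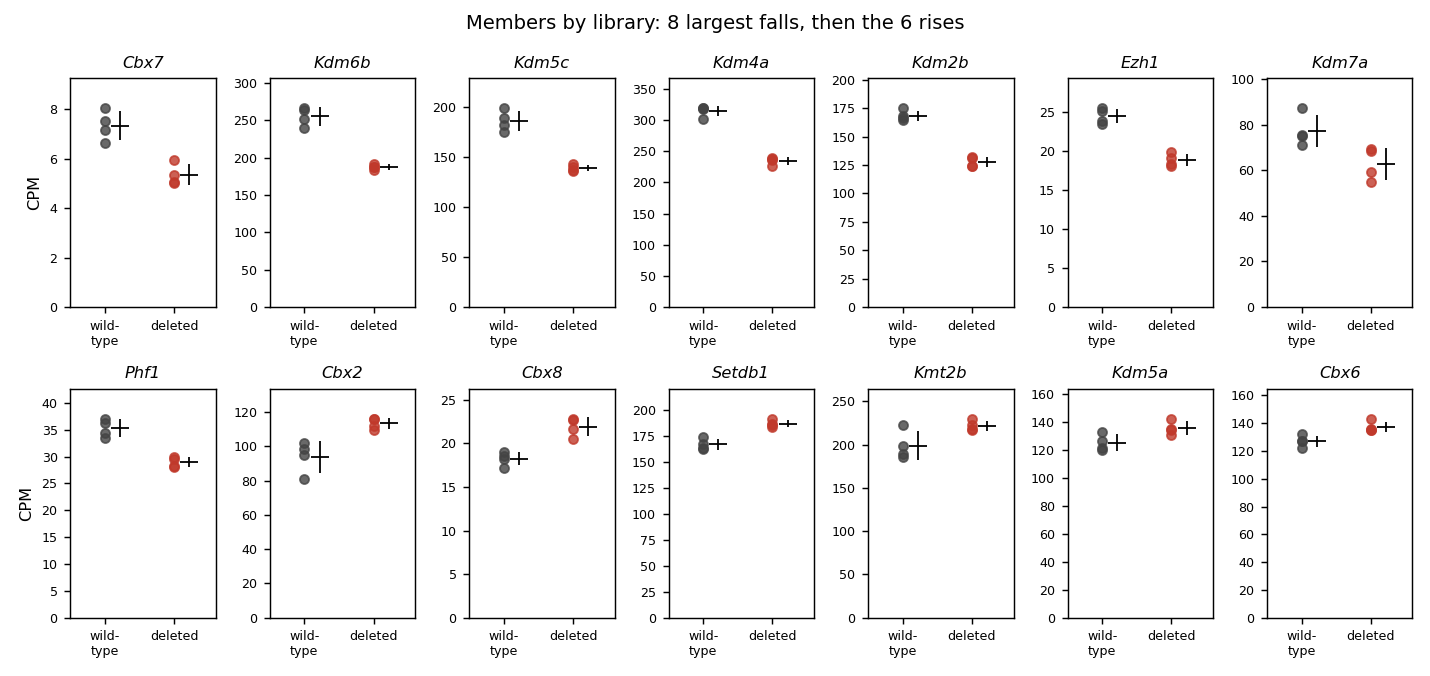
Level in CPM (vertical axes start at 0) of 8 genes with the largest falls and of the 6 genes that rose; points are libraries, 4 wild-type in grey and 4 Taf8-deleted in red, and bars show the mean ± SD. Kdm6b, Kdm5c, Kdm4a and Kdm2b have deleted levels of 73.4% to 75.9% of wild-type with no overlap, while Kmt2b and Kdm5a overlap.

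Related genes shifted against each other by small amounts. The groups did not overlap in the within-library ratio of 10 of the 18 pairs. Among single genes, 53.6% of all genes tested did not overlap. No such share was computed for other gene pairs, so the count does not set these pairs apart. The ratio rose for Rbbp4/Rbbp7, Ehmt1/Ehmt2, Kdm2a/Kdm2b, Kdm3a/Kdm3b, Kdm5a/Kdm5b and Kdm6a/Kdm6b, by 0.11 to 0.40 on the log2 scale. It fell for Ezh1/Ezh2 (-0.36), Cbx7/Cbx2 (-0.73), Kmt2c/Kmt2d (-0.18) and Kdm4a/Kdm4b (-0.25). These differences of ratios are descriptions and were given no test.

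**Figure D4:**
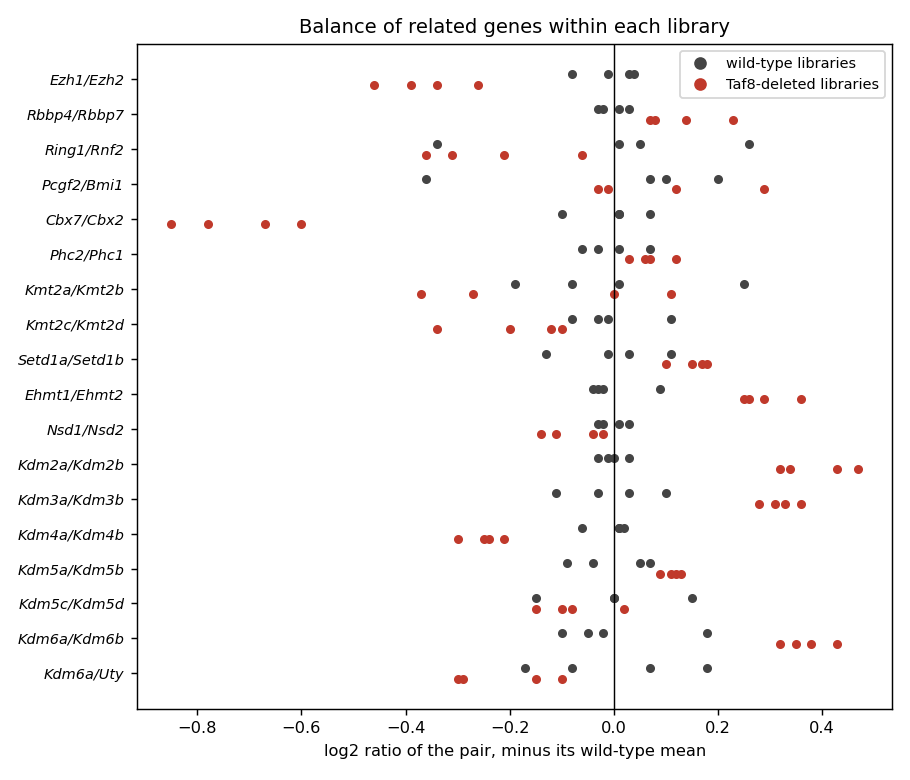
Log2 ratio of each of 18 gene pairs per kilobase within a library, minus the pair's wild-type mean (horizontal axis), with wild-type libraries in grey and Taf8-deleted libraries in red. The deleted points of Cbx7/Cbx2 lie farthest from the wild-type ones, with a mean difference of -0.73. This pair joins the largest fall and the largest rise among the called members.

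All embryos carried Y-linked partners of X-linked members, since Kdm5d and Uty were expressed in every library. Kdm5d, the Y copy of Kdm5c, fell from 69.4 ± 2.36 to 54.6 ± 3.28 CPM (log2 fold change -0.34, SE 0.05, adjusted p = 0.00016), and the ratio of Kdm5c to Kdm5d overlapped between the groups. Uty, the Y copy of Kdm6a, did not pass (0.13, adjusted p = 0.285). These pairs have related sequences, and the treatment of reads that map to both is not stated. Of the 4 members on the X chromosome, Rbbp7, Suv39h1 and Kdm5c were lower, where 34.2% of 546 tested X-linked genes were lower.

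The wider pathway, 76 further genes in 7 lists, included 4 that changed at least 2-fold, where 8.99% of all genes tested (1407) did. Counts were 12 higher (15.8%), 26 lower (34.2%) and 38 that missed the threshold, and the median log2 fold change was -0.03. The share called was 50%, where 59.2% of all genes tested were called, 29.5% higher and 29.6% lower. These are also the background shares for the separate lists named below. The largest change was Kdm4d, a testis-enriched relative of Kdm4a that demethylates H3K9. It was at 0.133, 0.199, 0.125 and 0.105 CPM in the wild-type libraries and 2.16, 2.6, 2.06 and 2.36 CPM in the Taf8-deleted libraries, from 4 to 8 counts in the wild-type libraries and from 55 to 125 in the deleted ones (log2 fold change 4.01, SE 0.21, adjusted p = 1.99e-07; Entrez gene 244694, chromosome 9, 14462548 to 14500522). Every deleted library was above every wild-type library, but the level stayed low, at 0.862 CPM per kilobase. The pseudogene Kdm4dl lies on the same chromosome, and reads shared between them cannot be told apart here. Kdm8, a JmjC-domain gene, was at 9.13, 7.4, 6.91 and 7.07 CPM in the wild-type libraries and 2.87, 2.69, 2.62 and 2.85 CPM in the Taf8-deleted libraries (log2 fold change -1.46, SE 0.11, adjusted p = 1.95e-06), with no overlap. Phf2 (-0.46), an H3K9 demethylase, was lower too.

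Among the other lysine methyltransferases, 6 of 13 were lower and 2 higher. Smyd5 was at 44.9, 40.4, 38.4 and 41.6 CPM in the wild-type libraries and 18.2, 19.3, 17.2 and 17.7 CPM in the Taf8-deleted libraries, without overlap (log2 fold change -1.19, SE 0.06, adjusted p = 1.45e-07). Setd6 (0.62) and Setd4 (0.59) were higher, and Setd7 (-0.50) was lower. Of 10 partners of the H3K9 enzymes and HP1 genes, 4 fell and 0 rose. Atf7ip, the partner of Setdb1, fell from 179 ± 5.81 to 120.1 ± 4.84 CPM (log2 fold change -0.58, SE 0.04, adjusted p = 1.73e-06), and Trim28 (-0.34), which recruits Setdb1, Cbx5 (-0.30), an HP1 gene, and Mphosph8 (-0.17), which reads H3K9 methylation, were lower.

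Among 13 shared subunits of the H3K4 complexes, 4 rose and 4 fell. Wdr82 (0.33), a partner of the SETD1 enzymes, was higher, and Hcfc1 (-0.38), Ncoa6 (-0.34) and Pagr1a (-0.38) were lower. Pagr1a shares exon bases with Pagr1b, so its count is uncertain. Other PRC1 partners were lower in 5 of 17, among them Sfmbt2 (-1.28), which stood at 4.02, 4.26, 4.86 and 4.44 CPM in the wild-type libraries and 1.95, 1.49, 1.68 and 2.08 CPM in the Taf8-deleted libraries, Bcorl1 (-0.52) and L3mbtl3 (-0.48). L3mbtl1 was higher (0.94), at 1.91 ± 0.403 against 0.984 ± 0.231 CPM. In the complex that removes ubiquitin from H2A, 3 of 8 were higher and 2 lower, with Mbd6 at 0.48, Bap1, the deubiquitinase, at 0.16, and Asxl3 at -0.42. Of 4 other PRC2 partners only Aebp2 passed (0.16).

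**Figure D5:**
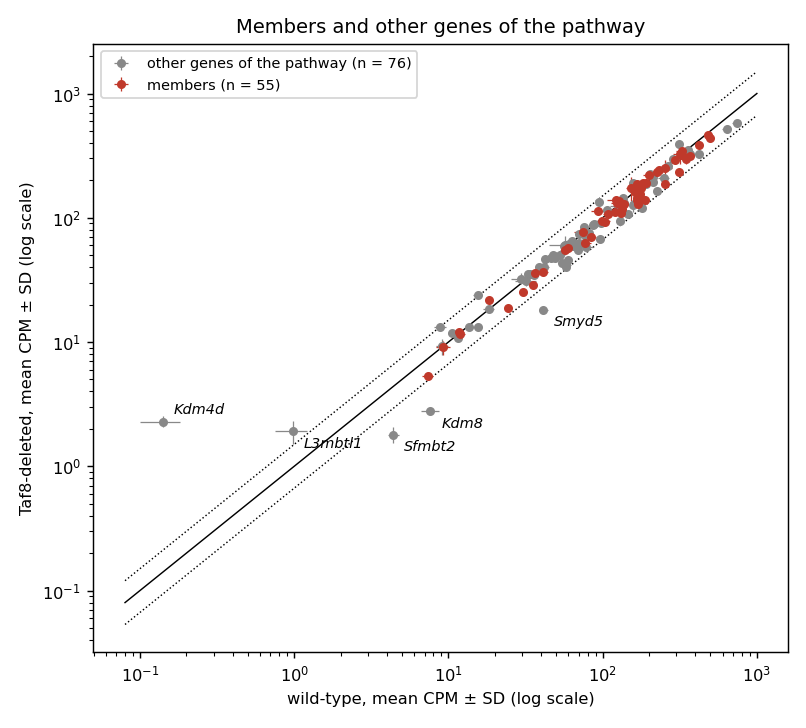
Mean CPM ± SD in Taf8-deleted (vertical) against wild-type cortex (horizontal), both on log scales, 4 libraries each, for the 55 members in red and 76 other genes of the pathway in grey. The solid line marks equal levels and the dotted lines 1.5-fold; all red points lie between the dotted lines, while Kdm4d lies far above and Kdm8, Smyd5 and Sfmbt2 below them.

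Of the genes that Polycomb commonly silences, Hox genes were near 0. None of the 39 passed the filter on low counts in the comparison. Summed over all 39, they were at 0.133, 0.199, 0.156 and 0.21 CPM in the wild-type libraries and at 0.264, 0.227, 0.411 and 0.113 CPM in the deleted ones, so the ranges overlap. Of 18 other classic target genes, 3 were tested. Gbx2 (6.08 and 6.24 CPM) and T (0.363 and 0.409 CPM) did not pass, and Sox17, which endothelial cells also express, was the 1 that passed (3.41 ± 0.555 to 4.5 ± 0.537 CPM, log2 fold change 0.39, SE 0.14, adjusted p = 0.0314). The other 15 were too low to test, among them the cell cycle inhibitor Cdkn2a, which Bmi1 is known to repress (0.0471 ± 0.0434 and 0.0589 ± 0.0205 CPM). In 2 of these 15, named after their values were seen, the groups did not overlap. Cdkn2b, its neighbour and a related inhibitor, was at 0.0996, 0.0748, 0.109 and 0.0788 CPM in the wild-type libraries and 0.185, 0.227, 0.224 and 0.113 CPM in the deleted ones. Pax2, a developmental transcription factor, was at 0.365, 0.324, 0.235 and 0.263 CPM in the wild-type libraries and 0.105, 0.195, 0.15 and 0.113 CPM in the deleted ones. These levels rest on low counts, 3 to 7 per library for Cdkn2b. Pax2 had 11, 13, 15 and 10 counts in the wild-type libraries and 4, 6, 4 and 6 in the deleted ones. At this depth, small amounts of Hox RNA from few cells would not be detectable.

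The members' levels differed far more between genes than between groups. Per kilobase in wild-type cortex they ran from 2.47 CPM (Phf19) and 2.53 CPM (Cbx7) to 109.7 CPM (Rbbp4), 111 CPM (Ezh2) and 139 CPM (Kdm1a). The top 3 kept this order in deleted cortex, at 104, 109 and 127 CPM. The members that fell lie on longer stretches of genome (median span 45.7 kb, 23 genes) than those that rose (15.3 kb, 6 genes), and those that did not pass span a median of 54.5 kb. Over all genes tested, 3806 genes with the longest spans, from 58.6 kb, were lower in 37.7% and higher in 20.8%, and 3806 with the shortest, to 9.09 kb, were lower in 24.6% and higher in 35.4%. Whether span bears on the members' values was not tested.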

How the data were processed

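Polyadenylated RNA of 8 embryonic cortex libraries was counted by the authors with Subread 1.5.0 and featureCounts on mm10, per the submitters' processing notes. The matrix the authors deposited holds unnormalized counts for each Entrez gene and its length, with 0 values unlike those of the single-sample files. Annotation, strand setting and treatment of multi-mapping reads: not given in the sources used here. Genes that overlap others, on either strand, or have near-identical copies are therefore uncertain, and 24 of the 55 genes share exon bases with another gene in GENCODE M21.

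Symbols and coordinates came from RefSeq (GRCm38.p6) for 25275 of 27179 genes. The test was edgeR's quasi-likelihood F-test (version 4.0.16, R 4.3.3) after filterByExpr and TMM scaling, with genotype as the single term and Benjamini-Hochberg adjustment over 15649 genes at 0.05. A standard error is the size of the log2 fold change over the root of its F statistic. CPM use TMM-scaled library sizes, and p-values measure the spread between these embryos. Within-group pairs of libraries differed beyond sampling noise (chi-square 3.7 to 28.4 per degree of freedom). Wild-type pairs with replicate 3 gave 23.2 to 28.4, the other wild-type pairs 4.98 to 7.28 and the deleted pairs 3.7 to 16.3. Wild-type replicate 3 was also the deepest library (65523487 counts). Among wild-type libraries it had the highest neuronal sum (6711 CPM) and the lowest radial glia sum (2233 CPM). The part of depth or cell types in its values was not tested. Depth was 26312505 to 65523487 counts per library. Tested on simulated counts for this comparison over 15649 genes, 71% of changes of 1.5-fold and 87% of changes of 2-fold were recovered among 200 changed genes, with 11 unchanged genes called. No member changed 1.5-fold, and 59.2% of genes were called in the data, so these rates do not say how often changes of the members' size are found.

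The members and lists were chosen with earlier results of these data known. Values in every library are given for the called members with the largest change (up to 12 a direction) and for most genes of the pairs described, and up to 4 called genes of each other list are named. Alternatives were other scalings, filters, DESeq2 1.42.0, limma 3.58.1 (voom), a replicate block, libraries left out, wild-type replicates 1 to 3 summed, a 1.2-fold minimum and a threshold of 0.01. Promoter motifs were searched on both strands, and the YY1 letters were shortened after a longer form had been searched.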

Additional observations from a re-analysis of the deposited data

Results flagged for a closer look

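In 4 of 112 groups of 4 libraries (55 genes and Taf8, in each genotype), 1 library stood apart from the other 3, with a gap to its neighbour above Dixon's 95% critical share of the range. Chance flags about 1 in 20 groups. Pcgf3 was highest in wild-type replicate 3, at 143 CPM against 126 to 129 CPM. Kdm4a was lowest in that library, at 302 CPM against 317 to 319 CPM. Kmt2d was lowest in wild-type replicate 4, at 136 CPM against 157 to 159.8 CPM. Cbx6 was highest in deleted replicate 2, at 143 CPM against 135 to 136 CPM.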

How the results depend on the processing

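Of the 29 members called, 22 kept their call in all 19 alternatives other than the stricter criteria, and no member was called in opposite directions. Of the 26 not called, 21 stayed so in all 19. Leaving out 1 library gave 3 to 6 members higher and 21 to 24 lower, and a median of -0.079 to -0.054. The count of 3 came without wild-type replicate 2 or any single deleted library. It was 3 also at a threshold of 0.01. A 1.2-fold minimum gave 0 members higher and 6 lower, 6 and 15 other pathway genes, and 2307 and 2328 of all genes, a stricter criterion by construction. The members' median was -0.007 on upper-quartile factors, 0.006 on library size alone and -0.108 without wild-type replicate 4 and deleted replicate 1 (added after seeing the data, 4 members higher and 23 lower). The median of all genes was 0.039 on upper-quartile factors or with no filter and 0.052 on library size alone.

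Some members near 0 that were not called changed sign, and the cause was not tested. With upper-quartile scaling the values were Ezh2 0.013, Eed 0.003, Suz12 0.003, Kmt2c 0.019, Setd1a 0.015 and Kdm2a 0.026. With library size alone they were Ezh2 0.026, Eed 0.015, Suz12 0.016, Kmt2c 0.031, Setd1a 0.027, Kdm2a 0.039, Phf19 0.011, Ring1 0.007, Pcgf5 0.006 and Kmt2e 0.009. Phc1 was -0.002 with RLE factors, -0.001 without a filter, -0.002 by DESeq2 and -0.013 with voom quality weights, and Kdm5b was -0.003, -0.002, -0.003 and -0.005. Kdm2a was 0.004 at 1 CPM in 4 libraries. With wild-type replicates 1 to 3 summed, Ezh2 was 0.001, Pcgf5 0.011, Kmt2c 0.028, Setd1a 0.010 and Kdm5b -0.012. Without wild-type replicate 4 and deleted replicate 1, Phf19 was 0.099, Phc3 -0.068, Kmt2a -0.12, Kmt2d -0.000 and Kdm5b -0.003. Leaving out 1 library gave ranges on both sides of 0 for Setd1a -0.054 to 0.03, Kdm5b -0.024 to 0.005, Suz12 -0.07 to 0.011, Mtf2 -0.14 to 0.001, Phc1 -0.038 to 0.022, Kmt2c -0.1 to 0.052, Phc3 -0.027 to 0.13, Kmt2a -0.074 to 0.11 and Phf19 -0.12 to 0.045.

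With the replicate number as a block, 4 members were higher and 21 lower, and of all genes 4115 were higher and 4170 lower. Same-numbered libraries did not deviate together (correlations -0.464 to 0.014), and no sample correlated best with its own number, so the numbers were not read as pairs. Adding 1 count before taking ratios changed no ratio's direction. Depth left standard errors of 0.03 to 0.13 for the members.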
